A study of Mus musculus with 6 samples.

Results

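DNA replication machinery is here a set of 47 mouse genes whose products license, open, copy and close the DNA of S phase, together with 4 enzymes that make its nucleotides. A locus was taken as a member by its gene symbol. All 47 were found among the 24402 loci of the table, 1 locus each, and all 47 passed a filter that asked for both values above 0 and a mean of 1 FPKM or more, as did 12701 loci in all. FPKM scales the fragments of a gene by the length of its transcript and the size of the library, so that levels can be set side by side between genes of different length.

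Whole lungs of C57BL/6 mice were sequenced at 12.5 days post coitus (dpc). The control group held 3 wild-type libraries, and the Yap mutant group held 3 Yap-flox/flox; Shh-Cre/+ libraries, in which the Cre recombinase is made from the Shh locus. Shh-Cre removes Yap from the lung epithelium and leaves it in the mesenchyme, and it also leaves 1 working copy of Shh, so that loss of Yap and a missing Shh copy cannot be told apart here. The deposited table gave 1 value per genotype, so no difference below has a replicate check, a standard deviation or a test. The number of fragments behind each value is unknown. In RNA of a whole organ, fewer dividing cells and less transcript per dividing cell cannot be told apart.

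YAP is the transcriptional coactivator at the end of the Hippo pathway and acts through TEAD factors. In the developing lung, the tips of the airway epithelium and the mesenchyme around them divide quickly. In a dividing cell, the origin recognition complex marks the start sites on DNA, Cdc6 and Cdt1 load the MCM helicase there in G1, kinases fire it at the start of S phase, and polymerases with their sliding clamp then copy both strands. Many of these genes are transcribed in late G1 under E2F factors, and their messages are at their highest as cells enter S phase.

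Yap itself, listed as Yap1, stood at 76.1 FPKM in control lungs and at 65.6 FPKM in Yap mutant lungs, a log2 ratio of -0.21. That level includes the mesenchyme, in which the gene is intact.

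Of the 47 replication genes, 46 were lower in Yap mutant than in control lungs and 1, Orc3, was higher. Over all 12701 loci, 51.8% were lower. The listed FPKM of all loci summed to 538651 in control and 522467 in Yap mutant lungs, a log2 ratio of -0.04, and scaling both to 1 sum moves every log2 ratio up by that amount. On that scale Orc5 and Tk1 lay above control too, leaving 44 members lower against 39.9% of all loci. The differences were small: the median log2 ratio of Yap mutant over control FPKM was -0.17 over the members, which is 11.04% below control, against -0.01 over all loci. Of the members, 31 were lower by at least 1.1-fold, against 19.5% of all loci, and 5 were lower by at least 1.2-fold, namely Cdc6, Rfc3, Tyms, Gins3 and Rrm2, against 8.94% of all loci. The latter count depended on the scale: it was 1 against 7.38% of all loci with both sums made equal, and 3 against 8.64% with the median of all loci set to 0. No member was higher by at least 1.2-fold, against 12.4% of all loci. Cdc6 alone was lower by at least 1.3-fold, against 5.87% of all loci, and no member was lower by 1.5-fold, against 3.42%.

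The members lay close together. The quartiles of their log2 ratios were -0.21 and -0.11, and 36 of the 47 lay between -0.1 and -0.3. The quartiles of all loci were -0.11 and 0.12, and their percentiles 5 and 95 were -0.44 and 0.54, so that every member, Cdc6 included, lay between percentiles 5 and 95. Of the members, 37 lay under the lower quartile of all loci. Among the 8103 loci whose control level lay within the members' own range, 58.9% were lower, 18.4% were lower by at least 1.1-fold and 6.47% by at least 1.2-fold.

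**Figure D1:**
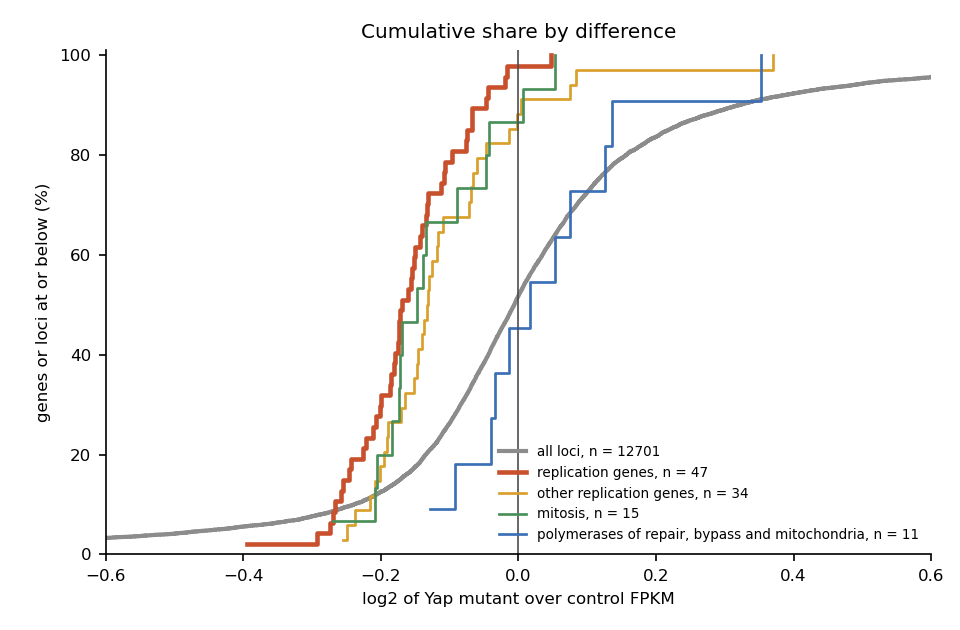
Cumulative share of genes or loci (vertical axis, percent) at or below a log2 ratio of Yap mutant over control FPKM (horizontal axis) for all 12701 loci, the 47 replication genes and 3 lists described further on; each line is a list and there is 1 value per genotype. The line of the replication genes reaches its middle at -0.17 and nearly all of it lies left of 0, while all loci are centred on -0.01 and the polymerases of repair on 0.02.

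The summed level of the 47 members was 2522 FPKM in control lungs and 2241 FPKM in the Yap mutants, or 0.468% and 0.429% of all FPKM listed. The size of the difference did not go with the level: over the 47 genes, Spearman's rho between control FPKM and log2 ratio was -0.10, given as a description of genes that share the same libraries.

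Promoter sequence is shown for 4 members, those with an E2F match that had the lowest log2 ratios, because E2F factors are the regulators that the members are best known to share. RefSeq promoters of build GRCm38.p6 were held for 39 of the 47 members, and the 250 bases before each start listed there were searched on both strands. A listed start need not be the outermost end of the gene: for 4 of the 39 members, Cdc6, Orc1, Orc4 and Rfc1, the first listed start lies over 250 bases inside the RefSeq gene. That of Cdc6 lies 442 bases inside it, so that the Cdc6 stretch shown here is within the gene and upstream of that later start. Each sequence is written 5′ to 3′ on the strand of its gene, with the letters of an E2F match in capitals. Bases that the annotation calls exon, of any gene, were left out, apart from 30 bases around the match in Rfc3 and Gins3, where the match itself includes such bases.
Cdc6, chr11:98907982-98908150, plus strand: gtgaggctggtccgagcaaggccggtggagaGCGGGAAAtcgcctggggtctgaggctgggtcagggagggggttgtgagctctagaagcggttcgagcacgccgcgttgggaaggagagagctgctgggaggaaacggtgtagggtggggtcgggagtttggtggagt
Rfc3, chr5:151651209-151651238, minus strand: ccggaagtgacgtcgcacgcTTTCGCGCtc
Gins3, chr8:95633507-95633536, plus strand: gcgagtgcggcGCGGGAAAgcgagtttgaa
Mcm6, chr1:128359706-128359955, minus strand: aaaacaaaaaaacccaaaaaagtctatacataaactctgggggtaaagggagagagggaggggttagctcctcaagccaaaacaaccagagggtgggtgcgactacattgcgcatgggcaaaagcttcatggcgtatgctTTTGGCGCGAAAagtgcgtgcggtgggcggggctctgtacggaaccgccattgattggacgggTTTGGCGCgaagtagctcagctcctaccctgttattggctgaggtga
The match in Cdc6 and in Gins3 is TTTCCCGC read on the other strand, that in Rfc3 is TTTCGCGC, and Mcm6 holds 3 matches, of which TTTGGCGC and a TTTCGCGC on the other strand overlap between 110 and 99 bases before the start.

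The letters searched for E2F were TTTCGCGC, TTTGGCGC, TTTCCCGC and TTTGCCGC. They were found in 9 of the 39 members (23.1%), namely Mcm5, Mcm6, Mcm7, Orc1, Orc3, Cdc6, Gins3, Rfc3 and Pola1, and in 2.16% of all 27025 genes with a promoter entry. The members with a match had a median log2 ratio of -0.17 and those without one had -0.16, with ranges that overlapped. Both ends of the range, Cdc6 and Orc3, hold a match. The CCAAT box, CCAAT, was found in 23 of 39 members (59.0%) and in 37.5% of all genes. The core of the TEAD site, GGAATG, was found in 4 of 39 members (10.3%), namely Mcm3, Cdc7, Rpa2 and Lig1, and in 14.4% of all genes. A match describes the letters and says nothing of binding.

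**Figure D2:**
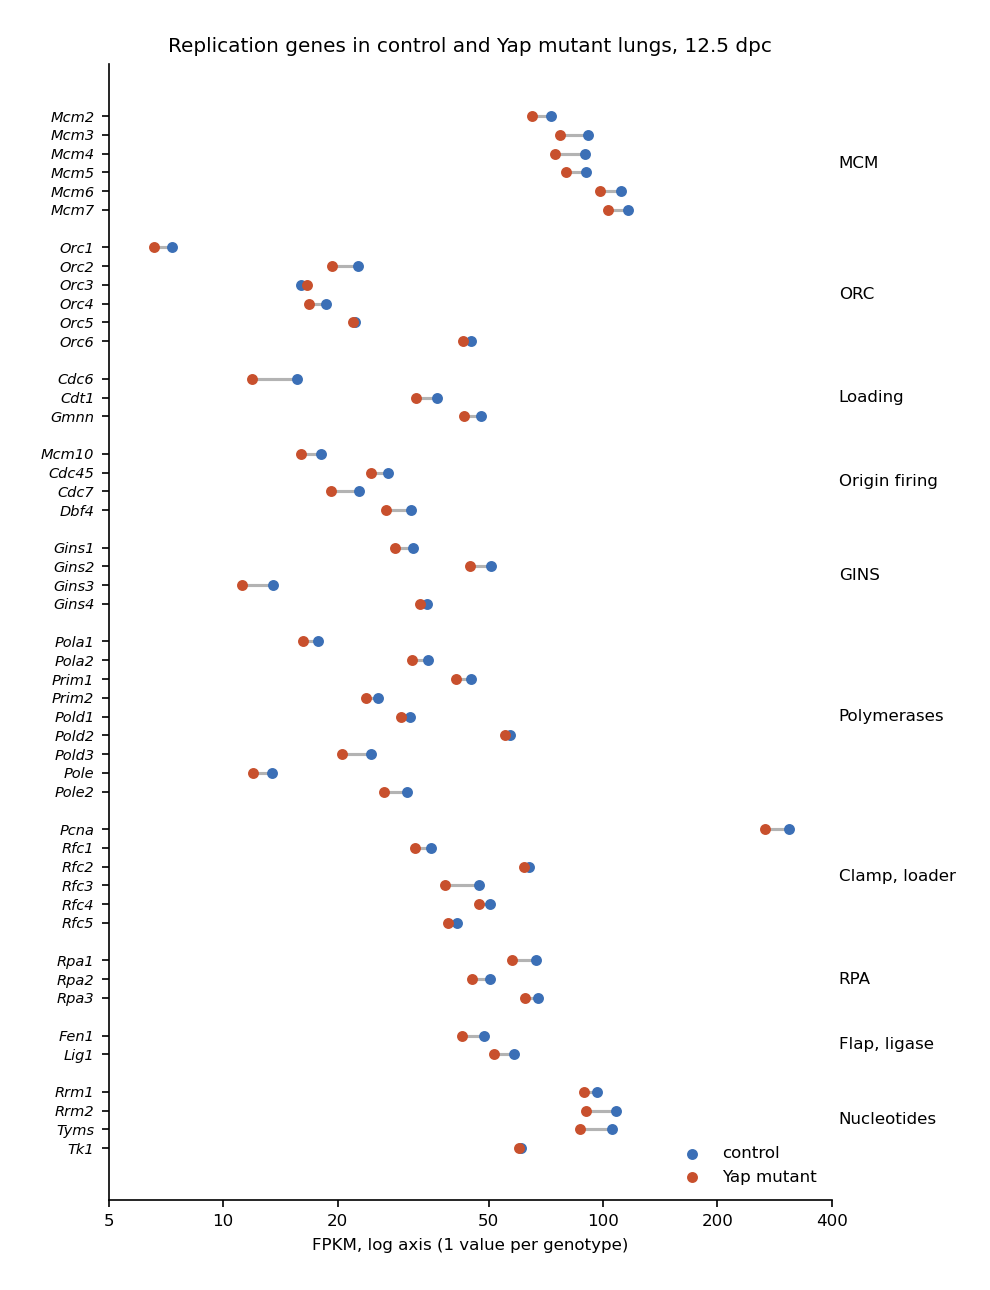
FPKM of each of the 47 replication genes in control (blue) and Yap mutant (orange) lungs, 1 value per genotype, on a log axis and grouped by complex. As deposited, the orange point lies left of the blue one for every gene but Orc3, and the levels run from 7.33 FPKM for Orc1 to 309.5 FPKM for Pcna in control lungs.

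The origin recognition complex (ORC) had the median log2 ratio nearest to 0 of the 10 groups, a place that rested on single subunits: leaving out 1 of the 6 took that median to between -0.14 and -0.07. Its 6 subunits together bind origins and, with Cdc6, place the helicase. Orc1, the largest subunit, was the lowest member of all, with 7.33 FPKM in control lungs and 6.57 FPKM in the Yap mutants (log2 ratio -0.16). Orc2 had 22.7 and 19.4 FPKM (-0.23), the largest difference of the complex. Orc3, at chr4:34550615-34614942, had 16.1 and 16.6 FPKM (0.05) and was the 1 member above control. Orc4 had 18.6 and 16.9 FPKM (-0.14), and Orc5 had 22.2 and 21.97 FPKM (-0.02), the smallest difference of all 47 members. Orc6, with 44.8 and 42.8 FPKM (-0.07), made up 34.03% of the summed level of the complex in control and 34.5% in Yap mutant lungs. With all 6 the median was -0.10, and their sum was 5.72% lower.

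The factors that load the helicase include the member with the largest difference. Cdc6, an ATPase that joins ORC in G1, lies at chr11:98907615-98923942 and had 15.7 FPKM in control lungs and 11.9 FPKM in the Yap mutants, 23.9% lower (-0.39). The ratio of Cdc6 to its partner Orc1 was 2.14 in control and 1.81 in Yap mutant lungs. Cdt1, which brings MCM to the origin, had 36.6 and 32.1 FPKM (-0.19). Geminin (Gmnn), which binds Cdt1 after S phase begins and so blocks a second loading, had 47.8 and 43.0 FPKM (-0.15). Cdt1 and its inhibitor were lower by similar amounts, while Cdc6 was lower by more. The ratio of Cdt1 to Gmnn was 0.764 in control and 0.748 in Yap mutant lungs.

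All 6 subunits of the MCM helicase were lower, with log2 ratios from -0.26 to -0.17. Mcm2 had 73.1 FPKM in control lungs and 64.9 FPKM in the Yap mutants (-0.17). Mcm3 had 91.2 and 77.1 FPKM (-0.24), and Mcm4 had 89.6 and 74.9 FPKM (-0.26). These 2 subunits had the largest differences of the ring. Mcm5 had 90.2 and 79.9 FPKM (-0.17), Mcm6 had 111.7 and 98.2 FPKM (-0.19), and Mcm7, the most abundant message of the ring, had 116.3 and 103.1 FPKM (-0.17). The ring holds 1 copy of each subunit, and in control lungs the highest and the lowest message differed 1.59-fold. The summed level was 572 FPKM in control lungs and 498 FPKM in the Yap mutants, 12.9% lower. Mcm2 contributed 12.8% of the sum in control and 13.0% in Yap mutant lungs, and Mcm7 contributed 20.3% and 20.7%, while Mcm3 contributed 15.9% and 15.5%. The largest shift in the ring was that of Mcm4, with 15.7% and 15.05%.

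The factors that turn the loaded helicase on were lower as well, all 4 of them, with a median log2 ratio of -0.20. Cdc7, the kinase that phosphorylates MCM, had 22.8 FPKM in control lungs and 19.2 FPKM in the Yap mutants (-0.25). Dbf4, its activating subunit, had 31.3 and 26.8 FPKM (-0.22). The ratio of kinase to activator was 0.729 in control and 0.717 in Yap mutant lungs. Mcm10, which is needed for the helicase to start unwinding and is no part of the ring, had 18.1 and 16.0 FPKM (-0.18). Cdc45, which together with GINS turns MCM into the active helicase, had 27.2 and 24.5 FPKM (-0.15).

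GINS, a ring of 4 subunits that travels with Cdc45 and MCM, had a median log2 ratio of -0.17 with unequal members. Gins3, at chr8:95633559-95645059, was the lowest of the 4 in level and had the largest difference, with 13.5 FPKM in control lungs and 11.2 FPKM in the Yap mutants, 17.0% lower (-0.27). Gins1 had 31.6 and 28.3 FPKM (-0.16), and Gins2 had 50.7 and 44.7 FPKM (-0.18). Gins4 had 34.4 and 32.9 FPKM (-0.07) and was the member of the complex nearest to its control level.

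**Figure D3:**
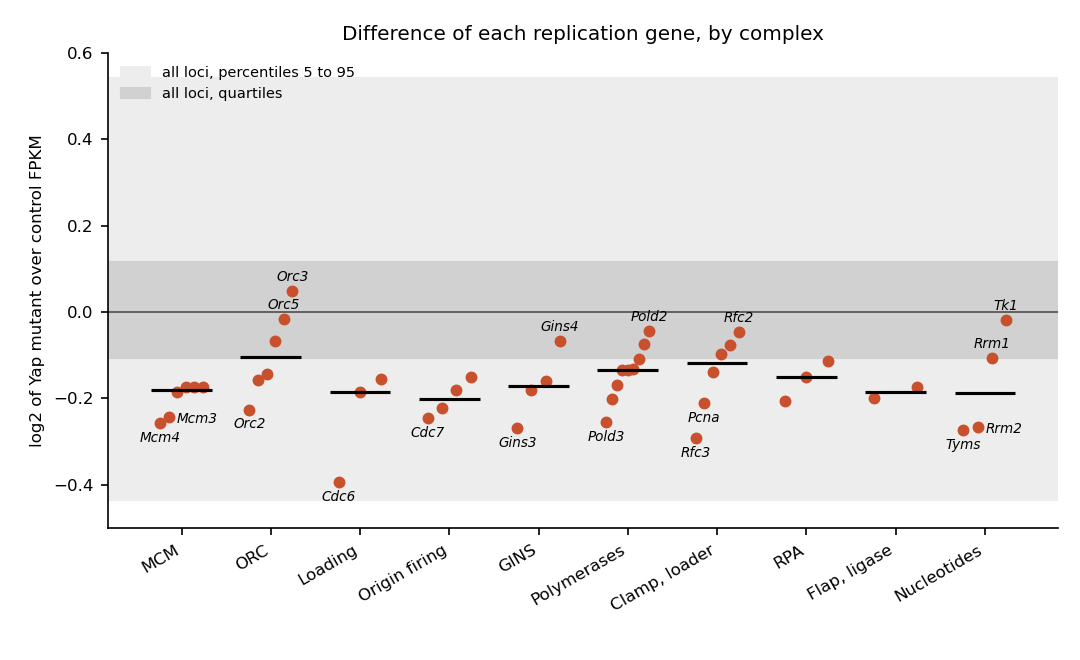
Log2 ratio of Yap mutant over control FPKM of each replication gene (points, 1 value per genotype) by complex, with the median of the complex (black line), the quartiles of all loci (dark band) and their percentiles 5 to 95 (light band). Every complex has its median below 0, from -0.20 for origin firing to -0.10 for ORC, and Cdc6 lies lowest at -0.39.

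All 9 genes of the polymerases and the primase were lower, with a median log2 ratio of -0.13 and a sum 8.31% lower. The polymerase alpha and primase complex starts every new strand, and the log2 ratios of its 4 subunits lay within a narrow band. Pola1, the catalytic subunit, had 17.8 FPKM in control lungs and 16.2 FPKM in the Yap mutants (-0.13), and Pola2 had 34.5 and 31.5 FPKM (-0.13). Prim1, which makes the RNA primer, had 45.0 and 41.0 FPKM (-0.13), and its partner Prim2 had 25.6 and 23.7 FPKM (-0.11). The ratio of Pola1 to Pola2 was 0.515 in control and 0.514 in Yap mutant lungs.

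Polymerase delta, which copies the lagging strand, had subunits that differed from each other more. Pold1, its catalytic subunit, had 30.9 and 29.4 FPKM (-0.07), and Pold2 had 56.8 and 55.1 FPKM (-0.04), both close to control. Pold3, an accessory subunit that binds the clamp, had 24.6 and 20.6 FPKM (-0.25), the largest difference of the polymerases. Pole, the catalytic subunit of the leading strand polymerase epsilon, had 13.4 and 11.96 FPKM (-0.17), and its subunit Pole2 had 30.5 and 26.6 FPKM (-0.20). The locus of Pole2 is shared in the table with Dnaaf2, and its value cannot be assigned to Pole2 alone.

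Pcna, the sliding clamp that holds polymerases on DNA, was the most abundant member, at chr2:132249286-132253180, with 309.5 FPKM in control lungs and 267.3 FPKM in the Yap mutants, 13.7% lower (-0.21). The clamp loader, replication factor C, opens and closes that ring and has 5 subunits with unequal differences. Its small subunit Rfc3, at chr5:151642824-151651208, had 47.1 and 38.4 FPKM, 18.3% lower (-0.29), the largest difference after Cdc6. The large subunit Rfc1 had 35.2 and 32.0 FPKM (-0.14). Rfc2 had 63.9 and 61.9 FPKM (-0.05), Rfc4 had 50.4 and 47.1 FPKM (-0.10), and Rfc5 had 41.3 and 39.2 FPKM (-0.08). Clamp and loader together had a median log2 ratio of -0.12.

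Replication protein A (RPA) covers single-stranded DNA at the fork, and its 3 subunits were lower. Rpa1, the large subunit, had 66.6 FPKM in control lungs and 57.7 FPKM in the Yap mutants (-0.21). Rpa2 had 50.3 and 45.3 FPKM (-0.15), and Rpa3 had 67.3 and 62.2 FPKM (-0.11). Fen1, the nuclease that trims the flaps of Okazaki fragments, had 48.7 and 42.5 FPKM (-0.20). Lig1, the ligase that then joins the fragments, had 58.3 and 51.7 FPKM (-0.17).

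Of the 4 enzymes of nucleotide supply, Tyms and Rrm2 had larger differences than Rrm1 and Tk1. Tyms, thymidylate synthase, at chr5:30039971-30073842, had 105.4 FPKM in control lungs and 87.2 FPKM in the Yap mutants, 17.3% lower (-0.27). Rrm2, the small subunit of ribonucleotide reductase, whose level limits the enzyme in dividing cells, lies at chr12:24708254-24714146 and had 108.4 and 90.1 FPKM, 16.8% lower (-0.27). Its large subunit Rrm1 had 96.3 and 89.4 FPKM (-0.11). The ratio of Rrm1 to Rrm2 was 0.888 in control and 0.992 in Yap mutant lungs. Tk1, thymidine kinase, which recycles thymidine in S phase, had 60.8 and 60.0 FPKM (-0.02) and was, after Orc5, the member nearest to its control level.

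Read in the order of the 10 groups, the medians ran from -0.20 for origin firing through -0.19 for nucleotide supply, for the loading factors and for flap cutting and ligation, -0.18 for MCM, -0.17 for GINS, -0.15 for RPA and -0.13 for the polymerases to -0.12 for clamp and loader and -0.10 for ORC. Without replicates, it is unknown which neighbours in this sequence differ beyond their error, and leaving out 1 gene of a group can change its place. Within the groups, the share that a member contributed to its group's summed FPKM shifted by less than 1 percentage point for 33 of the 47 genes and by 1.97 points at most, for Tk1.

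Some values rest on reads that could belong to another gene. Exons of 14 members share bases with a gene on the opposite strand, over 20% of the exon bases in Fen1 (84.2%, with Tmem258 and Gm10143), Gins2 (67.3%, with Gse1) and Orc2 (29.8%, with Nif3l1). The libraries were stranded by the study's methods, and whether the counting used strand is not stated. Smaller parts of the exons of Pole2 (8.5%), Mcm7 (3.9%), Orc5 (1.5%) and Rpa1 (0.79%) are shared with a gene on the same strand. For 8 members the listed locus was over 1.5 times as long as the RefSeq gene. That of Gins2 spans 360454 bases against 7810 for the gene. Pcna has 2 and Tyms has 1 pseudogene named after it in the annotation. Without Fen1, Gins2, Orc2 and Pole2, 42 of 43 members were lower, with a median log2 ratio of -0.16 and 5 genes lower by at least 1.2-fold.

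In a list of 34 other genes of DNA replication, 30 were lower and 4 higher, with a median log2 ratio of -0.13. The list covers fork protection, histone deposition, clamp unloading, topoisomerases and origin firing. It also holds subunits of polymerases and of ribonuclease H, relatives of the MCM subunits and other genes. None of the 34 genes was lower by at least 1.2-fold, against 8.94% of all loci. The lowest was Asf1a, a histone chaperone that supplies new nucleosomes behind the fork, with 32.2 FPKM in control lungs and 26.98 FPKM in the Yap mutants (-0.26). The highest was Pold4, the smallest and least abundant subunit of polymerase delta, with 5.92 and 7.66 FPKM (0.37), opposite in sign to Pold1, Pold2 and Pold3.

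In a list of 12 other genes of nucleotide supply, 11 lay below control and 1 above it, and the median was -0.09. Samhd1, which breaks down deoxynucleotides, was the lowest, with 25.6 and 21.6 FPKM (-0.24). Rrm2b, the reductase subunit that p53 induces and that serves cells outside S phase, was the 1 gene above control, with 2.97 and 3.48 FPKM (0.23), opposite in sign to Rrm2. The 11 polymerases of repair, lesion bypass and mitochondria, which copy DNA outside the replication fork, were lower in 5 cases and higher in 6, with a median of 0.02. They ran from Rev3l, the catalytic subunit of the bypass polymerase zeta, with 11.8 and 10.7 FPKM (-0.13), to Polm, a polymerase of end joining, with 4.15 and 5.31 FPKM (0.35). The 9 polymerase and primase genes among the members were all lower, and these other DNA polymerases had no common sign. Of the subunits of polymerases delta and epsilon outside the members, Pold4 was higher (0.37), and Pole3 (-0.07) and Pole4 (-0.17) were lower. In control lungs the 9 members had 13.4 to 56.8 FPKM and the 11 other polymerases 3.23 to 19.1 FPKM. The part that level had in this contrast was not tested.

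Upstream of S phase, 26 genes that control the step from G1 to S were lower in 21 cases and higher in 5. Their median log2 ratio was -0.15, and 6 of them were lower by at least 1.2-fold, against 8.94% of all loci. Ccnd1, the D-type cyclin that starts the step, had 98.9 FPKM in control lungs and 61.3 FPKM in the Yap mutants, 38.1% lower (-0.69), a larger difference than that of any replication gene. Ccne1, a cyclin E that activates Cdk2 at the entry to S phase, had 45.2 and 37.9 FPKM (-0.26), and E2f1, an activator of the replication genes, had 22.1 and 18.1 FPKM (-0.29). Cdkn1a, the inhibitor p21, was the highest of the list, with 2.36 and 3.13 FPKM (0.41).

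In a list of 15 genes of mitosis, 13 lay below control and 2 above it, and the median was -0.15, close to that of the replication genes. Aurka, a spindle kinase, was the lowest, with 45.1 and 37.5 FPKM (-0.27). Mki67, which marks cells in all phases of the cell cycle, was the highest, with 34.9 and 36.2 FPKM (0.05). A difference between the replication genes and the mitotic genes could not be tested.

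Markers of cell types also differed between the genotypes. Of 15 markers of lung epithelium, 12 were lower and 3 higher, with a median log2 ratio of -0.50, and their summed level in Yap mutant lungs was 0.797 of control. Sox2, a factor of the proximal airway, was the lowest of them, with 9.65 and 2.91 FPKM (-1.73), and Sftpc, a marker of the distal airway, was the highest, with 28.4 and 55.8 FPKM (0.97). Of 10 markers of mesenchyme, 3 were lower and 7 higher, with a median of 0.05 and a summed level 0.9997 of control. They ran from Foxf1, with 83.5 and 41.6 FPKM (-1.005), to Tbx5, with 43.9 and 54.2 FPKM (0.30). All markers named in this and the next paragraph had values above 0 in both genotypes.

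Of 6 endothelial markers, 5 were higher, with a median of 0.16, from Emcn (-0.17) to Tie1 (0.25). All 4 smooth muscle markers were lower, with a median of -1.06, from Myh11 (-2.18) to Cnn1 (-0.33), and all 4 neuronal markers were lower, with a median of -0.73, from Stmn2 (-0.98) to Elavl4 (-0.53). All 8 cardiac muscle markers that passed the filter were higher, with a median of 3.30, from Actc1 (1.34) to Nppa (6.64), and their summed level in Yap mutant lungs was 6.82 times that of control, 674 FPKM against 98.8 FPKM. Nppa had 0.58 FPKM in control lungs and 57.9 FPKM in the Yap mutants. It and some other cardiac markers lay under 1 FPKM in control lungs, so their ratios rest on a low control level. Of 4 liver markers that passed, 3 were higher, with a median of 1.78, from Alb (-0.16) to Ttr (4.78). Ttr too had a low control level, with 0.49 FPKM in control lungs and 13.5 FPKM in the Yap mutants. All 6 erythroid loci that passed were higher, with a median of 0.11, from Hbb-bh1 (0.06) to Hba-a1 (0.32). That Hba-a1 locus had 231 FPKM in control lungs and 287 FPKM in the Yap mutants. Another Hba-a1 locus had 935 and 982 FPKM (0.07), and both are listed with Hba-a2 as well. Of the mesothelial markers, 2 that passed, Upk3b (0.31) and Wt1 (0.32), were higher. The part that these cell types had in the difference of the replication genes was not tested.

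**Figure D4:**
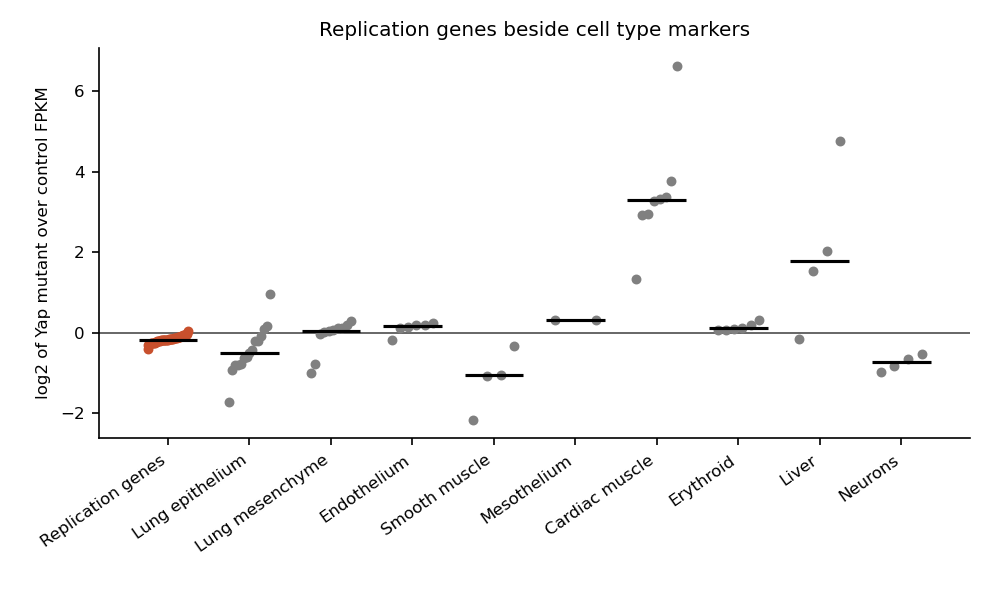
Log2 ratio of Yap mutant over control FPKM for the 47 replication genes (orange) and for the markers of 9 cell types (grey), 1 point per gene or locus that passed the filter and 1 value per genotype, with the median of each list (black line). The replication genes form a tight cloud just below 0, the epithelial markers have a median of -0.50, and the cardiac markers have one of 3.30.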

How the data were processed

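Whole-lung RNA-Seq of 3 control and 3 Yap mutant libraries at 12.5 dpc was used. The study's methods describe stranded paired-end libraries, and the labels name TopHat, Cuffdiff and mm10, with no versions. The authors' deposited table lists 24402 loci with 1 FPKM value per genotype, which Cuffdiff summarised over 3 libraries. That its values are FPKM was inferred from its Cuffdiff columns. The authors' log2 fold change and p-value columns, and their list of changed loci, were not used. With no values per library, there was no test, no error and no depth. No column belonged to other samples.

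The log2 ratio was computed as Yap mutant over control FPKM with no pseudocount, for loci above 0 in both genotypes whose mean reached 1 FPKM. A fold of 1.2 was the limit for counts, and lists were described by counts and medians. The equal-sums scaling, centring, other filters, pseudocounts and folds, and leaving out each gene of a complex, were tried as alternatives. Scripts ran in Python 3.11.15 with pandas 2.3.3, numpy 2.4.6 and matplotlib 3.10.9, and were tested on simulated data. Promoters and gene positions are from RefSeq (GRCm38.p6) and exons from GENCODE M21. Locus starts were written with 1 added.

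Every member is named. In each other list, the genes with the highest and the lowest log2 ratio are named, and also Ccne1, Ccnd1 and E2f1. The members and lists were chosen with earlier results of these data known. A marker gene of the lists is not reported here.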

Additional observations from a re-analysis of the deposited data

How the results depend on the processing

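The count of members lower in Yap mutant lungs was 46 with no filter, with a mean of 5 FPKM or more and with centring on the median of all loci, and 44 where both genotypes were scaled to equal sums, since Orc5 (0.03) and Tk1 (0.03) then lay above 0. The lowest member, Orc1, had 7.33 FPKM in control lungs and 6.57 FPKM in the Yap mutants, so a change of filter could not alter the count. Under equal sums 39.9% of all loci were lower, and the median of the members was -0.12. The count lower by at least 1.2-fold, 5 as reported, was 1 under equal sums (7.38% of all loci) and 3 with centring (8.64%). With other limits it was 31 at 1.1-fold (19.5% of all loci), 1 at 1.3-fold (5.87%) and 0 at 1.5-fold (3.42%). With 1 FPKM added to both values, 4 genes were past 1.2-fold, against 7.22% of all loci. Of 50 alternatives for the medians of the complexes, 45 lay within 1.5 times the reported median. The 5 others were ORC (-0.06) and clamp and loader (-0.07) under equal sums and, on leaving out 1 member, ORC (-0.07), the loading factors (-0.29) and nucleotide supply (-0.11). Centring and adding 1 FPKM could hardly take a median past 1.5 times. The median of all loci was -0.01, and no member lay under 6.57 FPKM. None of the 50 alternatives could change the sign of a median. The scalings moved the ratios by less than the distance of any median from 0. Adding 1 FPKM keeps the sign of a ratio, and in each complex all members, or all but 1, were lower. The alternative without Fen1, Gins2, Orc2 and Pole2 was chosen after seeing the data. It left out members with over 20% of exon bases shared with the opposite strand or with several symbols at the locus. Members with smaller overlaps, such as Rfc2 (15.1%) and Rfc4 (12.7%), stayed in. No paired analysis was possible because the table holds 1 value per genotype, and for the same reason no library could be left out. The number of fragments behind a value is unknown, and so the error of a difference of a few percent is too.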

Other observations

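The genes given here belong to the lists described above, fall outside the rule for named genes and were picked with their values in view. Uhrf1, which reads newly copied DNA for the maintenance of methylation, had 98.8 FPKM in control lungs and 83.8 FPKM in the Yap mutants (log2 ratio -0.24), while its partner Dnmt1, the maintenance methyltransferase, had 63.7 and 61.1 FPKM (-0.06). Slbp, which binds the messages of the histones made in S phase, had 94.1 and 81.8 FPKM (-0.20). Ccne2, the other cyclin E, had 12.4 and 9.48 FPKM (-0.39), a log2 ratio like that of Cdc6. Mcm8 had 7.998 and 8.42 FPKM (0.07) and Mcm9 had 4.71 and 4.70 FPKM (-0.003). Both are relatives of the MCM subunits that work in recombination and not in the replicative ring. The retinoblastoma gene Rb1 had 2.36 and 2.66 FPKM (0.17), and its relative Rbl1, had 16.6 and 14.9 FPKM (-0.15). None of these differences has a replicate check.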
